A study of Mus musculus with 8 samples.

Results

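The effect of losing Jmjd1c on transcript levels was compared between B cells taken in the germinal center state and B cells taken in an activated state. All 8 libraries of the series entered the comparison, 2 in each of 4 groups. The groups were KO germinal center B cells, WT germinal center B cells, KO activated B cells and WT activated B cells. KO stands for a knockout of Jmjd1c in B cells and WT for wild type, and all mice were of the C57BL/6 strain with the spleen as the source tissue. Germinal center B cells had been sorted by flow cytometry. Activated B cells had been enriched from spleen with a biotinylated pan-B reagent on streptavidin beads and then stimulated in vitro. The stimulus, its duration, the exons removed, the promoter that drives the deletion, the age of the mice and whether replicates came from separate mice are not stated in the labels. The p-values therefore measure only the spread between these libraries, which may be technical.

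Germinal centers are sites in lymphoid follicles where B cells divide and mutate their antibody genes in a dark zone and compete for antigen and T cell help in a light zone. Activated B cells have met a stimulus but have not entered that program. JMJD1C belongs to a family of Jumonji-domain demethylases that act on methylated lysine 9 of histone H3, a mark of silent chromatin, and may act on other substrates. The transcript level of a gene can differ with the knockout in both states alike, in 1 state, or in opposite ways. The comparison sorts genes into these cases. Sorted cells stand for the germinal center state and bead-enriched, stimulated cells for the activated state, so state and preparation cannot be told apart.

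For each gene the KO effect in a state is the log2 fold change of KO over WT libraries of that state. The difference of KO effects is the germinal center effect minus the activated effect, so a positive difference means that the effect was more positive in germinal center B cells. All effects and the difference came from 1 fit of the 4 group means to the gene counts with edgeR's quasi-likelihood F test, and a gene passed at a Benjamini-Hochberg adjusted p under 0.05. Levels are given in CPM, the usual count unit relative to library size, after TMM scaling over the 8 libraries, with values in the order of library 1 and library 2. CPM is not divided by gene length, so levels are compared between groups and not between genes.

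The libraries held 8777425 to 11414559 counts on genes. Biological coefficients of variation were 1.89% in KO and 2.48% in WT germinal center B cells, and 4.11% in KO and 3.87% in WT activated B cells. Cell type markers fitted the germinal center label. The 8 germinal center markers summed to 3607 and 3620 CPM in KO and 5447 and 5322 CPM in WT germinal center libraries, and to 226 to 238 CPM in all 4 activated libraries. Markers bearing on the activated label were mixed. Those of resting follicular or marginal zone B cells summed to 6549 and 6445 CPM in KO and 6444 and 6503 CPM in WT activated libraries, with Ighd averaging 3549 and 3535 CPM in KO and WT. The 6 markers of B cells activated in culture summed to 604 and 615 CPM in KO and 384 and 404 CPM in WT germinal center libraries, and to 499.9 and 516 CPM in KO and 478 and 465 CPM in WT activated libraries. Of these, Cd69 and Cd86, surface markers that rise on stimulation, averaged 104 and 173 CPM in KO germinal center, 36.7 and 151 CPM in WT germinal center, 29.3 and 50.4 CPM in KO activated and 25.4 and 40.6 CPM in WT activated B cells. The interleukin-2 receptor chain gene Il2ra averaged 2.53 CPM in KO and 1.69 CPM in WT germinal center B cells, and 33.3 CPM in KO and 28.3 CPM in WT activated B cells. Irf4 averaged 123 CPM in KO and 48.1 CPM in WT germinal center B cells, and 215 CPM in KO and 222 CPM in WT activated B cells. Il2ra and Irf4 were thus higher and Cd69 and Cd86 lower in the activated libraries, while Myc and Cd44, the other members, overlapped between the states over their group means. In bulk RNA fewer cells of a type and less RNA per cell cannot be told apart.

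Markers of other cells moved with genotype. The resting B cell markers summed to 2404 and 2418 CPM in KO against 899 and 898 CPM in WT germinal center libraries. The 3 neutrophil markers S100a8, S100a9 and Ly6g summed to 0.974 and 0.476 CPM in KO against 0 and 0 CPM in WT germinal center libraries, and to 713 and 613 CPM in KO against 188 and 148 CPM in WT activated libraries. Erythroid markers summed to 42.4 and 53.4 CPM in KO against 3.25 and 4.29 CPM in WT germinal center libraries, and to 1005 and 822 CPM in KO against 578 and 566 CPM in WT activated libraries. Monocyte and macrophage markers summed to 118 and 137 CPM in KO against 44.7 and 44.0 CPM in WT germinal center libraries, and to 1447 and 1336 CPM in KO against 892 and 843 CPM in WT activated libraries. Mpeg1 held the largest part of the germinal center sum, averaging 77.1 CPM in KO and 16.4 CPM in WT. Cd68 averaged 10.8 CPM in KO and 10.5 CPM in WT there, and the other members were higher in KO. T and NK cell markers summed to 8.04 and 9.28 CPM in KO against 0.944 and 1.37 CPM in WT germinal center libraries, and to 19.2 and 16.8 CPM in KO against 11.4 and 12.8 CPM in WT activated libraries. The part of such cells in the KO effects below was not tested.

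**Figure D1:**
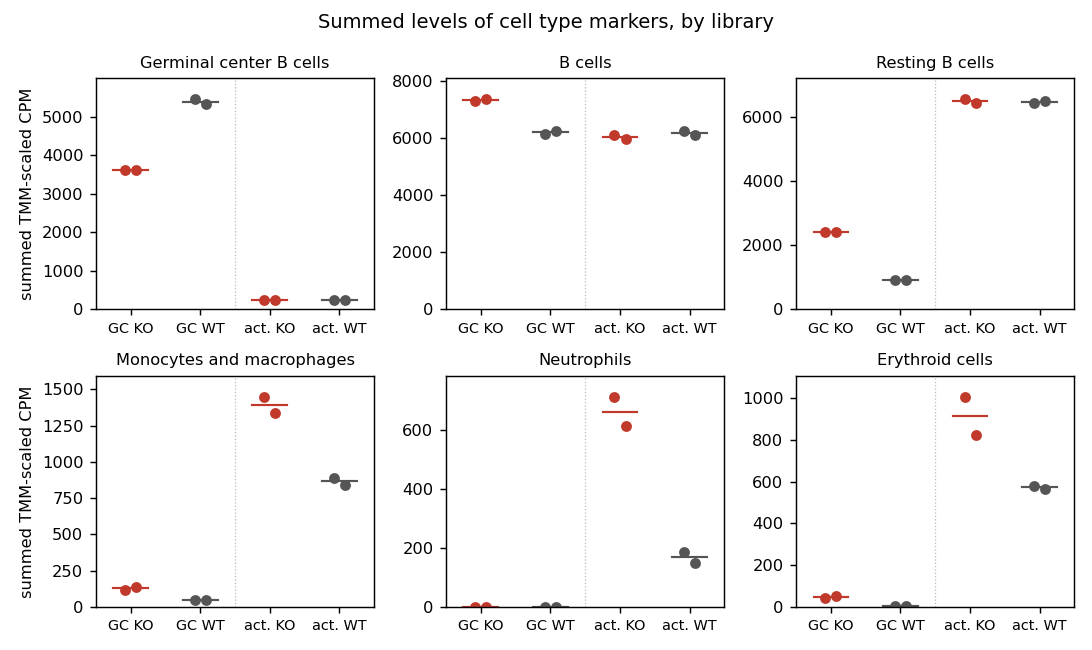
Summed TMM-scaled CPM of marker genes of 6 cell types in each of the 8 libraries, with KO in red, WT in grey, a point for each library and a line at the mean of 2. Resting B cell markers average 2411 CPM in KO and 898 CPM in WT germinal center libraries, below 6497 CPM in KO and 6473 CPM in WT activated libraries, and neutrophil markers average 663 CPM in KO against 168 CPM in WT activated libraries.

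Jmjd1c itself was lower in KO libraries of both states, by different amounts. The locus lies on chromosome 10, 67096125 to 67256326, plus strand, in GRCm38 (ENSMUSG00000037876.17). It had 163 and 158 CPM in KO against 194 and 178 CPM in WT germinal center B cells, and 136 and 153 CPM in KO against 274 and 283 CPM in WT activated B cells. KO and WT libraries did not overlap in either state, and the gap was wider in activated B cells. The KO effect was -0.21, SE 0.054, in germinal center B cells (adjusted p = 0.000735) and -0.94, SE 0.051, in activated B cells (adjusted p = 6.91e-30), and the difference of 0.74, SE 0.074, passed (adjusted p = 1.39e-14). Counts cover the whole gene, so transcripts from remaining exons are included and only the direction bears on the labels.

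The KO effect differed between the states for 4685 of the 14992 genes tested (31.2%), 2621 of them with a more positive effect in germinal center B cells (17.5%) and 2064 with a more negative one (13.8%). At an unadjusted p under 0.05 there were 5898. The difference exceeded 2-fold for 1175 of the genes that passed, 944 higher and 231 lower in germinal center B cells. KO changed 6516 genes in germinal center B cells (43.5%) and 1246 in activated B cells (8.31%). The activated changes were 838 rises (5.59%) and 408 falls (2.72%). The median SE of the effects was 0.119 in germinal center and 0.12 in activated B cells on the log2 scale. The fit shares a dispersion per gene over all groups, so this likeness does not show equal spread in both states. The coefficients of variation given above were larger in activated than in germinal center B cells. Across genes, which are not independent replicates, the 2 effects correlated weakly (Pearson r 0.184, Spearman rho 0.110). The states share no library, only the scaling and the dispersion estimate.

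Most genes with a different KO effect responded in germinal center B cells and not detectably in activated B cells. A gene was called one-sided where its effect passed in 1 state while the other effect did not pass and was under 1.2-fold in either direction. By this rule 3367 genes were one-sided in germinal center B cells (22.5% of the genes tested), 1800 higher and 1567 lower in KO. Of these, the 95% interval of the activated effect lay within 1.5-fold of no change for 1690 of the 1800 and 1531 of the 1567. It lay within the 1.2-fold limit of the class for 1038 of the 1800 and 1027 of the 1567. For the rest an activated effect past that limit is not excluded. In the reverse case 119 genes were one-sided in activated B cells (0.794%), 57 higher and 62 lower in KO. Both effects passed with opposite signs for 237 genes (1.58%), 123 of them higher in KO germinal center and lower in KO activated B cells and 114 the other way. A further 303 genes changed in 1 direction in both states but by different amounts (2.02%), 271 higher and 32 lower in KO, and the germinal center effect was the larger in 293 of them. The remaining genes with a passing difference fell outside these classes, 384 because the weaker effect was at or past 1.2-fold and 275 because neither effect passed alone.

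The small classes depend on the activated libraries and on the test. Without KO activated library 1 there were 108 opposite and 68 activated one-sided genes, and without WT activated library 2 there were 127 and 74. DESeq2 gave 61 opposite and 40 activated one-sided genes, and effects fitted within each state gave 124 and 71. The large class also depends on these choices. Of the germinal center one-sided genes, 669 of 1800 higher and 462 of 1567 lower in KO kept the class under every alternative. All 237 opposite genes are those whose 2 effects both passed, out of 793 genes with both effects passed (29.9%). Of these 237, 230 also passed the filter on low counts within each state taken alone.

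**Figure D2:**
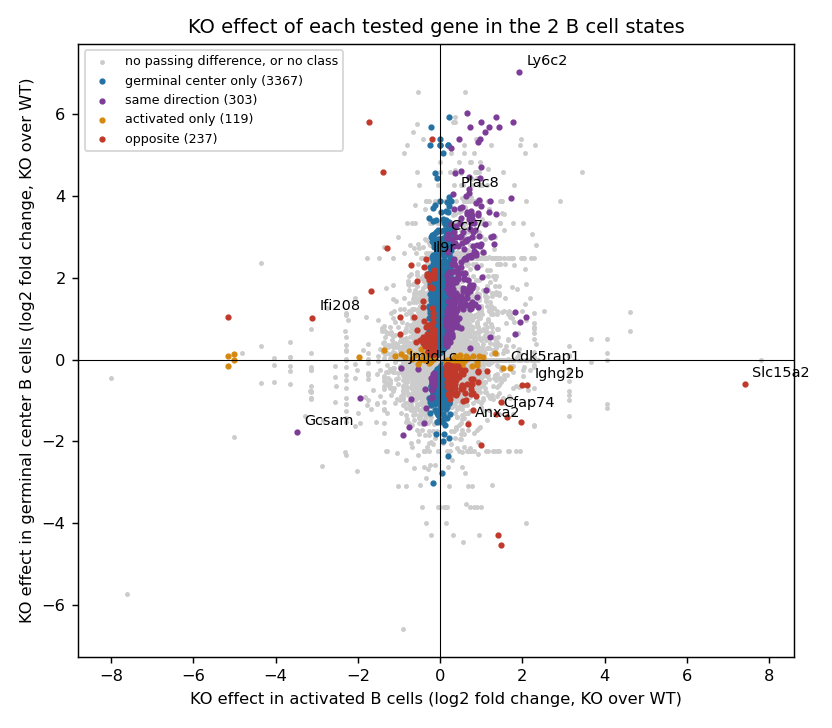
KO effect in activated B cells (x axis) against KO effect in germinal center B cells (y axis), both as log2 fold change of KO over WT, with a point for each of the 14992 tested genes. Coloured points are genes whose 2 effects differ, by class with the number of genes, grey points are all other tested genes, among them those with a passing difference outside these classes, and the blue germinal center one-sided genes stand as a narrow vertical band around an activated effect of 0.

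Opposite genes that rose in KO germinal center and fell in KO activated B cells included a cytokine receptor, a chemoattractant receptor and a plasma cell surface protein. Il9r, the interleukin-9 receptor chain (chromosome 11, 32187541 to 32200279, minus strand), had 142 and 155 CPM in KO against 27.4 and 27.1 CPM in WT germinal center B cells, and 119 and 122 CPM in KO against 146 and 162 CPM in WT activated B cells. The germinal center KO libraries reached the level of activated cells, whose own KO libraries lay below their WT libraries without overlap. Its effects were 2.45, SE 0.072, in germinal center and -0.35, SE 0.055, in activated B cells, and the difference was 2.80, SE 0.091 (adjusted p = 1.58e-47). Gpr183, a chemoattractant receptor that guides B cells out of follicle centers, had 45.9 and 45.1 CPM in KO against 12.6 and 11.1 CPM in WT germinal center B cells, and 96.3 and 95.3 CPM in KO against 117 and 115 CPM in WT activated B cells (difference 2.22, SE 0.12, adjusted p = 1.11e-30). Sdc1, the plasma cell surface proteoglycan CD138, had 12.2 and 10.4 CPM in KO against 2.1 and 3.1 CPM in WT germinal center B cells, and 33.5 and 31.6 CPM in KO against 41.4 and 38.3 CPM in WT activated B cells (difference 2.38, SE 0.23, adjusted p = 1.73e-15). For these 3 genes the germinal center rise exceeded the activated fall several times over on the log2 scale. The plasma cell markers, Sdc1 among them, summed to 376 and 365 CPM in KO against 285 and 268 CPM in WT activated libraries. Their sum thus rose in KO activated B cells where Sdc1 fell. In germinal center libraries they summed to 710 and 709 CPM in KO against 637 and 658 CPM in WT. Sdc1 left the opposite class under 9 of 19 alternatives.

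Genes with a sizeable effect in both states were found by ranking the opposite genes of each direction on the smaller of their 2 effects. Ifi208, a PYHIN-family gene induced by interferon (chromosome 1, 173673675 to 173698395, plus strand), came first among those higher in KO germinal center B cells that are not predicted models. It had 6.45 and 5.71 CPM in KO against 3.04 and 2.92 CPM in WT germinal center B cells, and 4.71 and 3.94 CPM in KO against 33.8 and 41 CPM in WT activated B cells. KO libraries of both states thus lay at similar low levels while the WT libraries differed widely. Its effects were 1.03, SE 0.24, in germinal center and -3.11, SE 0.15, in activated B cells (difference 4.14, SE 0.30, adjusted p = 1.15e-22). PYHIN genes have near-identical copies that can share reads, so its values are uncertain. Wls, which carries Wnt proteins to the cell surface, had 3.04 and 2.98 CPM in KO against 0.944 and 0.638 CPM in WT germinal center B cells, and 22.8 and 21.4 CPM in KO against 32.8 and 32.6 CPM in WT activated B cells (difference 2.49, adjusted p = 1.1e-07). Plk2, a polo-like kinase, had effects of 0.73, SE 0.16, in germinal center and -0.55, SE 0.14, in activated B cells, and Stac2, an adaptor of calcium channels, had 0.49, SE 0.11, in germinal center and -0.43, SE 0.094, in activated B cells. The long noncoding RNA Malat1 had effects of 0.43, SE 0.095, in germinal center and -0.59, SE 0.078, in activated B cells, but its activated libraries lay close to overlapping, at 1357 and 800.1 CPM in KO and 1875 and 1375 CPM in WT, and its difference did not pass with DESeq2. Rell2 had effects of 0.47, SE 0.18, in germinal center and -0.50, SE 0.16, in activated B cells, and 44.4% of its exon length overlaps exons of the opposite strand, so its reads cannot be assigned with certainty.

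Of the 123 opposite genes of this direction, 18 stayed opposite under each of the other fits, thresholds and left-out libraries tried, Il9r, Wls and Ifi208 among them. Satb1, Siglecg and Irs2 were named from these 18 after their values were seen. Satb1, a chromatin organizer of lymphocytes, had 58.9 and 54.8 CPM in KO against 36.7 and 36.9 CPM in WT germinal center B cells, and 257 and 263 CPM in KO against 320.4 and 323 CPM in WT activated B cells (difference 0.93, SE 0.089). Siglecg, an inhibitory lectin receptor of B cells, had 971 and 987 CPM in KO against 697 and 734 CPM in WT germinal center B cells, and 517 and 527 CPM in KO against 605 and 584 CPM in WT activated B cells (difference 0.64, SE 0.065). Irs2, an adaptor of insulin and interleukin-4 receptors, had effects of 0.80, SE 0.10, in germinal center and -0.33, SE 0.054, in activated B cells. Beside these 18, Kdm7a and Pax5 came from the gene lists. Kdm7a, a demethylase of histone H3 with a Jumonji domain, had effects of 0.71, SE 0.075, in germinal center and -0.16, SE 0.051, in activated B cells. Pax5, the B lineage transcription factor, had 1106 and 1075 CPM in KO against 875 and 824 CPM in WT germinal center B cells, and 1049 and 1099 CPM in KO against 1205 and 1214 CPM in WT activated B cells (difference 0.53, SE 0.065, adjusted p = 2.95e-11).

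Opposite genes that fell in KO germinal center and rose in KO activated B cells included switched antibody isotypes, a cyclin, a kinase and membrane proteins. Slc15a2 (chromosome 16, 36750177 to 36784962, minus strand), a transporter of di- and tripeptides, showed the widest split and was singled out after its values were seen. It had 87.6 and 86.7 CPM in KO against 135 and 131 CPM in WT germinal center B cells, and 103 and 106 CPM in KO against 0.723 and 0.496 CPM in WT activated B cells. The gene was below 1 CPM in both WT activated libraries and well expressed in the other 3 groups. Its effects were -0.61, SE 0.060, in germinal center and 7.40, SE 0.15, in activated B cells, and the difference was -8.01, SE 0.17 (adjusted p = 4.92e-62). Anxa2, likewise chosen after its values were seen and a calcium-dependent membrane-binding annexin (chromosome 9, 69453620 to 69491795, plus strand), had 79 and 78.8 CPM in KO against 234 and 240.4 CPM in WT germinal center B cells, and 49.4 and 47.6 CPM in KO against 33.2 and 28 CPM in WT activated B cells. The states lay closer together in KO than in WT libraries, and the difference was -2.25, SE 0.10 (adjusted p = 5.58e-37).

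Among the 6 genes ranked highest in this direction, Cfap74, a gene of ciliary structure, had 15.7 and 14.5 CPM in KO against 37.7 and 38.6 CPM in WT germinal center B cells, and 10.3 and 9.29 CPM in KO against 4.23 and 3.37 CPM in WT activated B cells. Its effects of -1.33, SE 0.12, in germinal center and 1.37, SE 0.19, in activated B cells, were nearly equal in size. Rgcc, a regulator of the cell cycle that responds to complement, had 17.8 and 20.6 CPM in KO against 38.7 and 39.9 CPM in WT germinal center B cells, and 3.17 and 3.63 CPM in KO against 1.14 and 1.29 CPM in WT activated B cells (difference -2.51, SE 0.34). Pik3cb, a catalytic subunit of phosphoinositide 3-kinase, had effects of -0.89, SE 0.22, in germinal center and 0.87, SE 0.20, in activated B cells, and Tiam1, an exchange factor for the GTPase Rac, had -1.24, SE 0.43, in germinal center and 0.80, SE 0.24, in activated B cells. E2f8, an atypical E2F repressor of the cell cycle, had 62.5 and 71.4 CPM in KO against 125 and 113 CPM in WT germinal center B cells, and 6.25 and 3.84 CPM in KO against 2.79 and 2.97 CPM in WT activated B cells, with 11.2% of its exon length over exons of the opposite strand. Mmp9, a gelatinase of neutrophils and macrophages, rested on 0 counts in KO and 5 counts in WT germinal center libraries, which is at least 1.35-fold lower in KO, beside 25.7 and 21.8 CPM in KO and 8.78 and 9.02 CPM in WT activated B cells. Its difference did not pass without WT germinal center library 2. Its rise in activated B cells went with the neutrophil markers given above, whose part in it was not tested.

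Of the 114 genes of this direction, 21 stayed opposite under each other fit, threshold and left-out library tried. Pim1 and H2-Eb2 came from the gene lists, and Ccnd3 and Tkt were named after their values were seen. Ccnd3, the cyclin D that germinal center B cells use in the dark zone, had 237 and 224 CPM in KO against 429.6 and 429 CPM in WT germinal center B cells, and 120.2 and 118 CPM in KO against 102 and 101 CPM in WT activated B cells (difference -1.12, SE 0.073). Pim1, a serine kinase induced by cytokines, had 210.4 and 214 CPM in KO against 321 and 321 CPM in WT germinal center B cells, and 104 and 106 CPM in KO against 84.8 and 88.7 CPM in WT activated B cells (difference -0.87, SE 0.075, adjusted p = 6.31e-18), and 14.5% of its exon length overlaps exons of the opposite strand. Tkt, transketolase of the pentose phosphate pathway, had effects of -0.42, SE 0.048, in germinal center and 0.39, SE 0.049, in activated B cells. H2-Eb2, a class II histocompatibility gene, had small effects of -0.23, SE 0.056, in germinal center and 0.23, SE 0.053, in activated B cells, yet its libraries did not overlap between genotypes in either state. Of the 43 opposite genes named here or below, 18 stayed opposite under all 19 alternatives and 25 left the class under 1 to 11 of them, most often with DESeq2 (20 genes) and without WT activated library 2 (15 genes). Rell2, Mki67, Mmp9, Sdc1, Kdm7a, Cks2, Sc5d, E2f8, Ldha and Tiam1 left it under 7 or more.

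**Figure D3:**
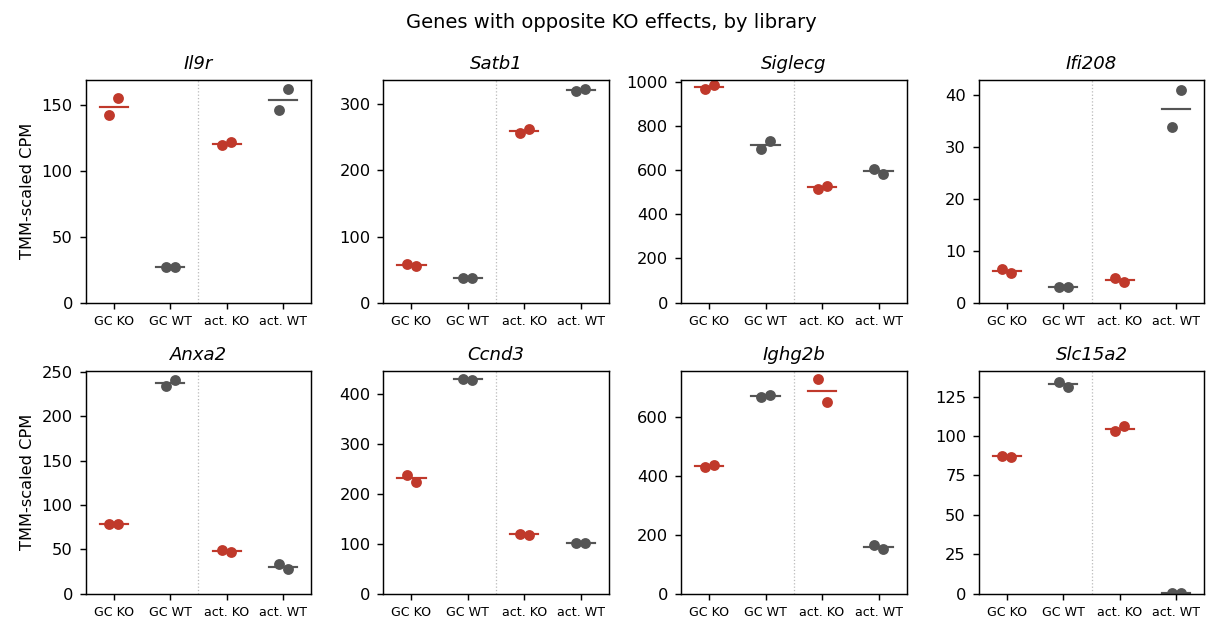
TMM-scaled CPM of 8 genes with opposite KO effects in each library (KO in red, WT in grey, a line at the mean of 2), germinal center libraries left and activated libraries right of the dotted line. In the upper row KO lies above WT in germinal center and below WT in activated B cells, as for Il9r, which averages 148.8 CPM in KO against 27.2 CPM in WT germinal center and 120.7 CPM in KO against 154 CPM in WT activated B cells. In the lower row the order is turned round.

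Some immunoglobulin constant genes were also opposite. Of 12 tested, 4 were opposite, 4 one-sided in germinal center B cells and 2 changed in 1 direction in both states. All 4 opposite genes encode switched heavy chains and fell in KO germinal center while rising in KO activated B cells. Ighg2b (chromosome 12, 113302965 to 113307933, minus strand) had 433 and 439 CPM in KO against 669 and 676 CPM in WT germinal center B cells, and 729.6 and 653 CPM in KO against 166 and 152 CPM in WT activated B cells (difference -2.75, SE 0.072, adjusted p = 2.2e-55). KO activated libraries thus stood close to WT germinal center libraries for this isotype. Ighg1 had 2961 and 3034 CPM in KO against 3632 and 3707 CPM in WT germinal center B cells, and 101 and 92.2 CPM in KO against 54.8 and 47.9 CPM in WT activated B cells (difference -1.21, SE 0.081, adjusted p = 2.22e-24). Ighe had effects of -0.63, SE 0.17, in germinal center and 2.0, SE 0.31, in activated B cells. Ighg2c, with effects of -0.97, SE 0.083, in germinal center and 0.23, SE 0.074, in activated B cells, was the fourth. The unswitched chains behaved otherwise. Ighm had 5705 and 5839 CPM in KO against 1621 and 1642 CPM in WT germinal center B cells, and 8292 and 7755 CPM in KO against 7098 and 7031 CPM in WT activated B cells, so it rose in both, and Ighd had 579.9 and 588 CPM in KO against 142 and 141 CPM in WT germinal center B cells, and 3579 and 3519.5 CPM in KO against 3508 and 3562 CPM in WT activated B cells, so it was one-sided. Jchain, which links antibody multimers, was named after its values were seen. It did not pass in germinal center B cells, at 488 and 499.6 CPM in KO and 491 and 505 CPM in WT, and rose in activated B cells, at 211 and 199 CPM in KO and 141 and 127 CPM in WT (activated effect 0.62, SE 0.054, difference -0.63, SE 0.071). Constant regions resemble each other in sequence, so reads may be split between them.

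The one-sided germinal center genes with the largest effects were low in WT and present in KO. Plpp3, a phospholipid phosphatase, had 5.11 and 5.95 CPM in KO against 0.420 and 0.274 CPM in WT germinal center B cells, and 8.7 and 9.19 CPM in KO against 8.05 and 7.24 CPM in WT activated B cells (difference 3.74, SE 0.47, adjusted p = 1.13e-10). Axl, a receptor kinase for apoptotic cells, had 5.97 and 4.88 CPM in KO against 0.525 and 0.274 CPM in WT germinal center B cells, and 5.94 and 6.06 CPM in KO against 4.34 and 5.95 CPM in WT activated B cells, and Lilrb4a, an inhibitory receptor of B and myeloid cells, had 5.11 and 4.88 CPM in KO against 0.210 and 0.547 CPM in WT germinal center B cells, and 29.6 and 30.3 CPM in KO against 25.1 and 28.6 CPM in WT activated B cells. KO germinal center libraries lay between WT germinal center and activated libraries for Plpp3 and Lilrb4a and reached the activated range for Axl, and none of the 3 passed in activated B cells. Itm2a, a membrane protein of lymphocytes, had 15 counts in KO and 1 in WT germinal center libraries (ratio 18.5, 95% interval 2.85 to 779). It was well above this in activated B cells, at 5.32 and 5.75 CPM in KO and 6.5 and 4.66 CPM in WT.

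In the other direction Tgfbr1, a receptor kinase for the cytokine TGF-beta, had 38.2 and 51.1 CPM in KO against 131 and 127 CPM in WT germinal center B cells, and 44.4 and 49 CPM in KO against 52 and 46.7 CPM in WT activated B cells (difference -1.45, SE 0.11, adjusted p = 1.19e-20). The activated libraries of both genotypes overlapped near the level of KO germinal center B cells. Osbpl3, an oxysterol-binding protein, had 9.5 and 10.1 CPM in KO against 40.8 and 37.5 CPM in WT germinal center B cells, and 8.7 and 11.4 CPM in KO against 9.39 and 9.91 CPM in WT activated B cells (difference -2.05, SE 0.21). Fads2, a fatty acid desaturase, had effects of -1.91, SE 0.15, in germinal center and 0.22, SE 0.40, in activated B cells. Palm, a membrane-shaping protein, had -1.82, SE 0.12, in germinal center and 0.11, SE 0.12, in activated B cells, and Vopp1 had -1.37, SE 0.19, in germinal center and -0.040, SE 0.13, in activated B cells.

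The 119 genes one-sided in activated B cells included Cdk5rap1, which modifies mitochondrial tRNA (chromosome 2, 154335380 to 154373010, minus strand). It had 16 and 15.7 CPM in KO against 18.8 and 18.1 CPM in WT germinal center B cells, and 24.4 and 24.4 CPM in KO against 7.02 and 9.71 CPM in WT activated B cells. Its activated effect was 1.54, SE 0.14, its germinal center effect of -0.22, SE 0.13, did not pass (adjusted p = 0.184), and the difference was -1.76, SE 0.19 (adjusted p = 4.13e-13). Sema7a, a membrane-anchored semaphorin (chromosome 9, 57940112 to 57962865, plus strand), had 233 and 242 CPM in KO against 216 and 227 CPM in WT germinal center B cells, and 21.9 and 24.4 CPM in KO against 12.4 and 11.5 CPM in WT activated B cells (difference -0.86, SE 0.12, adjusted p = 1.2e-08). The activated rise of this gene took place at a far lower level than that of germinal center B cells. Stag3, a meiotic cohesin subunit, Mgll, a lipase for monoacylglycerols, and Lrrc25, a myeloid leucine-rich repeat protein, had activated effects of 1.34, 1.04 and 0.91. Lrrc25 stood at 11.6 and 6.86 CPM in KO and 4.34 and 5.45 CPM in WT activated B cells, and its difference did not pass without KO activated library 1, nor with DESeq2. The differences of Stag3 and Mgll did not pass without WT activated library 2. That of Stag3 did not pass without KO activated library 1 either, nor that of Mgll without KO activated library 2 or WT germinal center library 2, or with DESeq2.

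Lower in KO activated B cells with a passing one-sided effect were Rell1, Impact, Chst10, Dnah8 and Gstt1. Rell1, a tumor necrosis factor receptor relative, had 7.67 and 9.88 CPM in KO against 8.29 and 7.02 CPM in WT germinal center B cells, and 21.6 and 21.2 CPM in KO against 35.5 and 36.7 CPM in WT activated B cells (difference 0.96, SE 0.21, adjusted p = 8.74e-05). Impact, an inhibitor of the kinase GCN2 and an imprinted gene in mouse, had 25.8 and 24.9 CPM in KO against 26.2 and 27.9 CPM in WT germinal center B cells, and 43.6 and 43.5 CPM in KO against 62.6 and 64.5 CPM in WT activated B cells, and its difference of 0.45, SE 0.13, did not pass with DESeq2 or against a 1.2-fold limit. Chst10, a sulfotransferase of glycans, and Dnah8, a dynein heavy chain, had activated effects of -0.62 and -0.69, and the difference of Dnah8 did not pass without KO germinal center library 1 or with DESeq2. Gstt1, a glutathione transferase, had 0 counts in KO and 9 in WT activated libraries (at least 2.98-fold lower), beside 5.36 and 6.67 CPM in KO and 6.61 and 6.84 CPM in WT germinal center B cells. Its difference did not pass without either of the KO activated libraries.

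**Figure D4:**
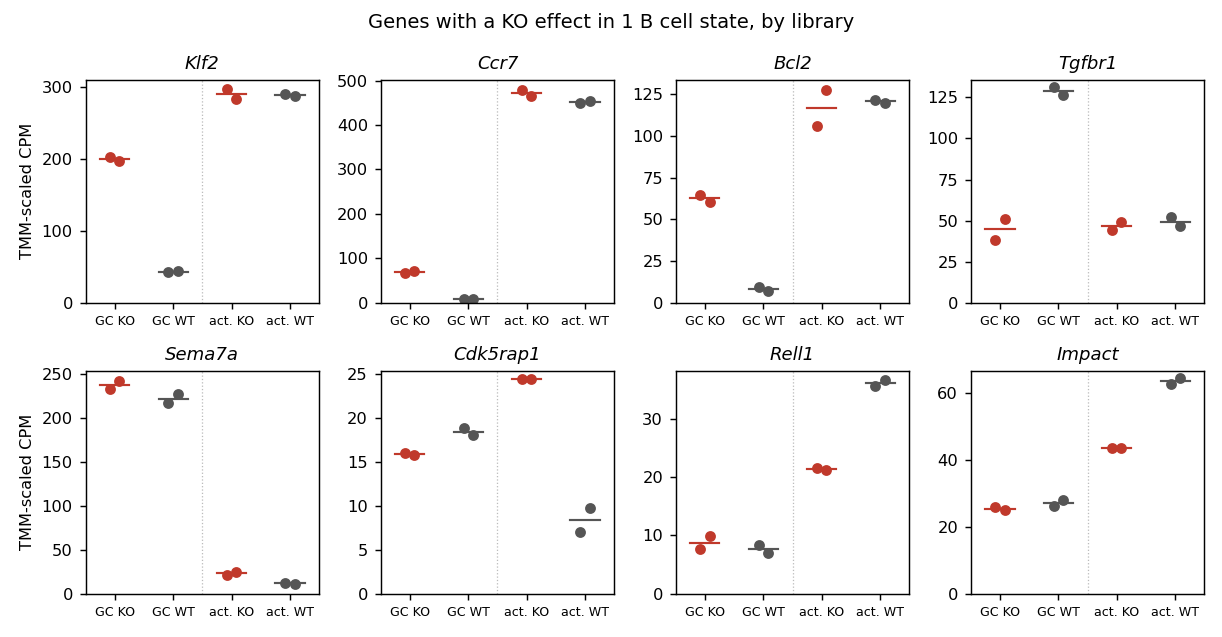
TMM-scaled CPM of 8 genes with a KO effect in 1 state, by library (KO in red, WT in grey, a line at the mean of 2), germinal center libraries left and activated libraries right of the dotted line. In the upper row genotypes are apart in germinal center B cells and close or overlapping in activated B cells, as for Klf2, which averages 199 CPM in KO against 42.5 CPM in WT germinal center and 289.7 CPM in KO against 288 CPM in WT activated B cells. In the lower row the genotypes are apart in activated B cells.

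Genes that moved in 1 direction in both states differed mainly in size. Ly6c2, a surface antigen of monocytes and memory lymphocytes, had 9.5 and 6.78 CPM in KO against 0 and 0.0912 CPM in WT germinal center B cells, and 98.5 and 76.6 CPM in KO against 23.2 and 23 CPM in WT activated B cells, where the germinal center counts were 135 in KO and 1 in WT (ratio 166.6, 95% interval 29.4 to 6627). Ly6 genes have close copies, so this value is uncertain. Iqgap2, a scaffold of the cytoskeleton, had 14 counts in KO and 0 in WT germinal center libraries (at least 5.76-fold higher) and an activated effect of 0.65, SE 0.16. Gcsam, an adaptor of germinal center B cells, fell more steeply in activated than in germinal center B cells. Gcsam had 105 and 101 CPM in KO against 352 and 347 CPM in WT germinal center B cells, and 0.614 and 0.303 CPM in KO against 4.75 and 5.65 CPM in WT activated B cells. The difference was 1.71, SE 0.40, and its activated level was a small part of that in germinal center B cells. Ccdc88a, a regulator of actin and cell migration, had effects of -1.54, SE 0.19, in germinal center and -0.40, SE 0.12, in activated B cells.

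Gene lists describe how these classes fell across pathways. Of 760 tested genes on 32 lists, 436 had a different KO effect. The counts below stand against 31.2% of all tested genes with a different effect, 17.5% higher and 13.8% lower in germinal center B cells. KO raised 22.3% and lowered 21.1% of all tested genes in germinal center B cells, and raised 5.59% and lowered 2.72% in activated B cells. Of all genes with a different effect 71.9% were one-sided in germinal center B cells. List medians stand against an all-gene median of 0.0077 for the germinal center effect and -0.0015 for the activated effect.

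Interferon-response genes rose far more in KO germinal center than in KO activated B cells. Type I interferon acts through a factor complex that binds the interferon-stimulated response element in promoters. Of 53 tested genes of this list, the difference was higher in germinal center B cells for 42, lower for 2 and did not pass for 9. KO raised 49 and lowered 2 in germinal center B cells and raised 25 and lowered 0 in activated B cells. The median effects were 2.04 (1.96 with Ifi44, which had 0 counts in WT germinal center libraries, set at its bound) and 0.31. By class 18 were one-sided in germinal center B cells and 18 moved in 1 direction in both. The gene Psmb8, an immunoproteasome subunit, was opposite with effects of -0.21, SE 0.048, in germinal center and 0.30, SE 0.056, in activated B cells. Ifi208 was not on the list.

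Ifi203, a further PYHIN gene, had 270.5 and 278 CPM in KO against 46.9 and 41.2 CPM in WT germinal center B cells, and 545 and 557 CPM in KO against 527 and 536 CPM in WT activated B cells, a one-sided gene with a difference of 2.59, SE 0.077 (adjusted p = 1.23e-50). Ifi213 had 91.1 and 86.4 CPM in KO against 10.9 and 10.3 CPM in WT germinal center B cells, and 128 and 137 CPM in KO against 115 and 119 CPM in WT activated B cells (difference 2.88, SE 0.11), and rose in both states. Ddx58, which encodes the viral RNA sensor RIG-I, had 98.2 and 98.9 CPM in KO against 15.8 and 15.6 CPM in WT germinal center B cells, and 139 and 151 CPM in KO against 125 and 129 CPM in WT activated B cells (difference 2.46, SE 0.10). Trim30a, a restriction factor of the tripartite motif family, had 155 and 163 CPM in KO against 46.2 and 43.6 CPM in WT germinal center B cells, and 202 and 205 CPM in KO against 163 and 169 CPM in WT activated B cells (difference 1.53, SE 0.081). In WT germinal center B cells all 4 genes stood below every activated library, and the KO germinal center libraries lay closer to the activated level.

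Promoters are shown for Ifi208 and 3 of these genes because the same motif stands in genes of different classes. The 120 bases before the annotated start are given 5′ to 3′ in the direction of the gene (RefSeq, GRCm38.p6), in lower case with matches to the motif in capitals. The motif searched, the core of the interferon-stimulated response element, was GAAA, any 2 bases and GAAA again, on either strand. The regions are chr1:173673545-173673664 on the plus strand and, on the minus strand, chr1:173599273-173599392, chr1:173942493-173942612 (the second of 2 listed promoters) and chr7:104465194-104465313 (the first of 2).
Ifi208: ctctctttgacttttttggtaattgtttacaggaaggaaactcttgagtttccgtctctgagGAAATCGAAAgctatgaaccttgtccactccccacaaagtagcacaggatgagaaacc
Ifi213: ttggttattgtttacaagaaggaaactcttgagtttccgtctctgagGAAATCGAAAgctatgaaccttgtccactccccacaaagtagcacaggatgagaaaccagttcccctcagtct
Ifi203: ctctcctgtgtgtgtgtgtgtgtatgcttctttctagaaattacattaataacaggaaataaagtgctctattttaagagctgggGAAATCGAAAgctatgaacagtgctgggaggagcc
Trim30a: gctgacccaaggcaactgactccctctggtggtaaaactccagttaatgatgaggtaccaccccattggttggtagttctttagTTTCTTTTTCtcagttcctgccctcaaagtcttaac
Ifi208 (opposite) and Ifi213 (rising in both) share an unbroken run of 88 bases in these stretches, which includes the match, and both share a run of 20 bases around it with Ifi203 (one-sided). The match begins 58 bases before the start in Ifi208, 73 in Ifi213, 35 in Ifi203 and 36 in Trim30a, where it lies on the other strand. A promoter of 300 bases, 250 before to 50 after the start, was at hand for 10219 tested genes, and 3.88% held the motif on either strand. The share was 22 of 39 on the interferon list (56.4%), 27 of 159 among genes rising in both states (17.0%), 7 of 88 among opposite genes that rose in germinal center B cells (7.95%), 62 of 1322 among germinal center one-sided genes that rose (4.69%) and 34 of 1262 among those that fell (2.69%). A match is a description of letters and not of binding.

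Memory and recirculation genes mostly had a KO effect that was more positive in germinal center B cells. Of 34 tested, the difference was higher for 28 and lower for 4, with 17 one-sided, 7 moving in 1 direction and 4 opposite. Median effects were 1.42 and 0.052. Klf2, a factor that keeps lymphocytes recirculating, had 202 and 197 CPM in KO against 41.9 and 43.2 CPM in WT germinal center B cells, and 297 and 283 CPM in KO against 289 and 287 CPM in WT activated B cells (difference 2.22, SE 0.077, adjusted p = 3.4e-45). Ccr7, the chemokine receptor for T cell zones, had 67.2 and 70.3 CPM in KO against 8.29 and 9.03 CPM in WT germinal center B cells, and 479 and 466 CPM in KO against 451 and 455 CPM in WT activated B cells (difference 2.92, SE 0.11). KO germinal center libraries lay between WT germinal center and activated libraries for these genes, and the activated genotypes lay close together or overlapped. Plac8, expressed by memory precursors, had 145 and 141 CPM in KO against 8.18 and 8.94 CPM in WT germinal center B cells, and 287 and 263 CPM in KO against 241 and 199.7 CPM in WT activated B cells (difference 3.73, SE 0.11) and rose in both. Klf2 and Ighd are also among the resting B cell markers whose sum moved in the same libraries. The part of other B cells in these libraries was not tested.

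Germinal center identity genes fell in KO germinal center B cells with little change in activated B cells. Of 31 tested, the difference was lower for 15 and higher for 4, and 12 were one-sided. KO lowered 28 and raised 3 in germinal center B cells and lowered 5 and raised 1 in activated B cells, with medians of -0.62 and -0.042. Gna13, a G protein that confines cells to the germinal center, had 210.0 and 203 CPM in KO against 378 and 359 CPM in WT germinal center B cells, and 254 and 268 CPM in KO against 278 and 274 CPM in WT activated B cells (difference -0.76, SE 0.069). Bach2, a repressor of plasma cell fate, had 219.9 and 222 CPM in KO against 404 and 389 CPM in WT germinal center B cells, and 313 and 337 CPM in KO against 349.8 and 345 CPM in WT activated B cells (difference -0.75, SE 0.068). Cd38, which is low on mouse germinal center B cells, had 85.7 and 86.8 CPM in KO against 23.2 and 23.4 CPM in WT germinal center B cells, and 238 and 254 CPM in KO against 240.2 and 236 CPM in WT activated B cells (difference 1.84, SE 0.092). Of 20 dark zone genes the difference was lower for 11 and higher for 2, and of 29 light zone genes it was higher for 14 and lower for 1. Cxcr4, the dark zone chemokine receptor, had effects of -0.56, SE 0.051, in germinal center and 0.12, SE 0.050, in activated B cells. In the light zone list Ccr6 had effects of 2.86, SE 0.11, in germinal center and 0.37, SE 0.071, in activated B cells, and Irf4, a factor of light zone and plasma cell fate, had 121 and 126 CPM in KO against 49.1 and 47.1 CPM in WT germinal center B cells, and 212 and 219 CPM in KO against 225 and 219 CPM in WT activated B cells (difference 1.40, SE 0.081).

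Cell cycle genes fell in KO germinal center B cells, with few or opposite effects in activated B cells. Of 45 tested genes of G2 and M phase the difference was lower for 32 and higher for 0, with 15 one-sided and 5 opposite. KO lowered 41 in germinal center B cells and raised 5 in activated B cells, with medians of -0.43 and 0.14. Of 44 S phase genes the difference was lower for 24 and higher for 0, with 21 one-sided, and 1 gene, E2f8, rose in activated B cells. Hmmr, a spindle protein, had 70.0 and 75.2 CPM in KO against 114 and 112 CPM in WT germinal center B cells, and 6.76 and 5.96 CPM in KO against 4.23 and 3.27 CPM in WT activated B cells (difference -1.39, SE 0.22). Cks2, a partner of cyclin-dependent kinases, had effects of -0.69, SE 0.069, in germinal center and 0.56, SE 0.17, in activated B cells. Mki67, the proliferation marker, had 2227 and 2253 CPM in KO against 2760.5 and 2648 CPM in WT germinal center B cells, and 78 and 80.8 CPM in KO against 70.3 and 68.5 CPM in WT activated B cells (difference -0.47, SE 0.078). In activated B cells these genes were at a small part of their germinal center level. Hmgb2, a chromatin protein of dividing cells, had 756 and 769 CPM in KO against 1219 and 1241 CPM in WT germinal center B cells, and 171 and 163 CPM in KO against 159 and 155 CPM in WT activated B cells. Of the S phase genes, Mcm6, a helicase subunit, had effects of -0.64, SE 0.046, in germinal center and 0.042, SE 0.059, in activated B cells, and Pcna, the replication clamp, had -0.60, SE 0.045, in germinal center and 0.10, SE 0.062, in activated B cells. Without KO activated library 1 or WT activated library 2 the number of genes changed in activated B cells fell to 691 or 778.

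Top2a, the topoisomerase of dividing cells, had 643 and 696 CPM in KO against 940.1 and 925 CPM in WT germinal center B cells, and 35 and 38.4 CPM in KO against 34 and 31.6 CPM in WT activated B cells (difference -0.64, SE 0.096). Its promoter is shown as an example of a cell cycle promoter with several copies of the CCAAT box, which the factor NF-Y binds. The 250 bases before its start (chr11:99024190-99024439, minus strand, RefSeq, GRCm38.p6) are given 5′ to 3′ with CCAAT or its reverse complement ATTGG in capitals.
Top2a: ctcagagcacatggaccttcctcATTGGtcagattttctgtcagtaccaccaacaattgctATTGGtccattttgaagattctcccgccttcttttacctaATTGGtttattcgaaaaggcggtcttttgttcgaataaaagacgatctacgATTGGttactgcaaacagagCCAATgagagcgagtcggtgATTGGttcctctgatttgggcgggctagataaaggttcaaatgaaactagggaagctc
The stretch held 6 matches, the nearest to the start beginning 58 bases before it. CCAAT on either strand was in 43.0% of the 10219 promoters, in 29 of 38 of the G2 and M phase list (76.3%), in 23 of 33 of the S phase list (69.7%) and in 12 of 17 of the dark zone list (70.6%), which shares genes with the first. The share was higher still on lists outside the cell cycle, in 24 of 28 for folding secreted proteins (85.7%), 11 of 13 for MHC class II presentation (84.6%) and 18 of 22 for cholesterol and fatty acid synthesis (81.8%). By class it was in 46 of 88 opposite genes that fell in germinal center B cells (52.3%) and 32 of 88 of those that rose there (36.4%). Among genes one-sided in germinal center B cells it was in 577 of 1262 that fell, Top2a among them (45.7%). It was in 578 of 1322 that rose (43.7%). Both shares are near the 43.0% over all promoters.

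Respiratory chain genes split by genome of origin in germinal center B cells. Of 64 nuclear genes the difference was lower for 34 and higher for 0, with 32 one-sided. KO lowered 51 and raised 0 of them in germinal center B cells, and 0 of 64 passed in activated B cells. Sdhb, a subunit of complex II, had 135 and 143 CPM in KO against 183 and 199 CPM in WT germinal center B cells, and 57 and 54 CPM in KO against 49.7 and 47.9 CPM in WT activated B cells (difference -0.65, SE 0.091). Cox4i1, of complex IV, had effects of -0.38, SE 0.049, in germinal center and 0.099, SE 0.058, in activated B cells. Of 13 mitochondrially encoded genes the difference was higher for 9 and lower for 0, and KO raised 12 in germinal center and 3 in activated B cells. The gene mt-Nd1, of complex I, had 9127 and 9398 CPM in KO against 5221 and 5149.6 CPM in WT germinal center B cells, and 2221 and 2077 CPM in KO against 2199 and 1898 CPM in WT activated B cells (difference 0.77, SE 0.066). mt-Co1, of complex IV, had effects of 0.88, SE 0.043, in germinal center and 0.21, SE 0.043, in activated B cells. Mitochondrially encoded genes took 9.20% and 9.52% of counts in KO against 5.51% and 5.27% in WT germinal center libraries, and 2.66% and 2.54% in KO against 2.42% and 2.26% in WT activated libraries. This share can also reflect RNA quality, whose part was not tested. With mitochondrial genes left out of the library sizes, the median difference over all genes was 0.024 in place of 0.034 on the log2 scale.

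The glycolysis and sterol synthesis lists held opposite genes that fell in KO germinal center and rose in KO activated B cells. Of 32 glycolysis and hypoxia genes the difference was lower for 13 and higher for 5. KO raised 7 and lowered 11 in germinal center B cells and raised 7 and lowered 0 in activated B cells. The 4 opposite genes were Gapdh, Pgk1, Pkm and Ldha. Gapdh had 1106 and 1162 CPM in KO against 1669 and 1674 CPM in WT germinal center B cells, and 2217 and 2089 CPM in KO against 1949.7 and 1916 CPM in WT activated B cells (difference -0.72, SE 0.064, adjusted p = 3.84e-17). Pgk1, a kinase that makes ATP in glycolysis, had 152 and 152 CPM in KO against 192 and 191 CPM in WT germinal center B cells, and 909 and 890.3 CPM in KO against 752 and 788 CPM in WT activated B cells (difference -0.56, SE 0.070). Pkm, the pyruvate kinase gene, had effects of -0.39, SE 0.047, in germinal center and 0.15, SE 0.045, in activated B cells. Of 32 cholesterol and fatty acid synthesis genes the difference was lower for 18 and higher for 2. KO raised 4 and lowered 16 in germinal center B cells and raised 9 and lowered 0 in activated B cells. Among the 6 opposite genes were Hmgcs1, Idi1, Sqle, Msmo1 and Sc5d, enzymes of the sterol pathway. Hmgcs1, an early enzyme of the sterol pathway, had 70.0 and 66.9 CPM in KO against 116 and 105 CPM in WT germinal center B cells, and 73.7 and 76.6 CPM in KO against 63.8 and 59.2 CPM in WT activated B cells (difference -0.98, SE 0.094, adjusted p = 1.4e-15). Sqle, squalene epoxidase, had effects of -0.53, SE 0.075, in germinal center and 0.34, SE 0.092, in activated B cells. Scd1, a desaturase on the same list, was one-sided in the other direction, with effects of 0.58, SE 0.049, in germinal center and 0.015, SE 0.046, in activated B cells. Of the opposite genes named from these lists, Pgk1 stayed opposite under all alternatives, and the others left the class under 2 to 8 of them, among these DESeq2 for Ldha, Hmgcs1, Idi1, Sqle, Msmo1 and Sc5d. For the activated effect DESeq2 called 432 genes where edgeR called 1246.

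On the signaling lists the difference was more often higher than lower in germinal center B cells. One-sided there were 10 of 25 immediate early genes, 13 of 30 NF-kappaB targets, 20 of 36 cytokine and STAT response genes and 15 of 38 B cell receptor signaling genes. Of 25 immediate early genes the difference was higher for 12 and lower for 0, and 1 passed in activated B cells. Jun, an AP-1 subunit, had 159.5 and 159 CPM in KO against 34.3 and 33 CPM in WT germinal center B cells, and 29.3 and 27.2 CPM in KO against 21.3 and 26.9 CPM in WT activated B cells (difference 2.02, SE 0.13). Junb had effects of 1.07, SE 0.050, in germinal center and 0.033, SE 0.058, in activated B cells. Of 30 NF-kappaB targets the difference was higher for 13 and lower for 2, with Nfkb2 at 0.66, SE 0.052, in germinal center and -0.099, SE 0.051, in activated B cells, and the survival factor gene Birc3 at 0.70, SE 0.054, in germinal center and 0.0054, SE 0.047, in activated B cells. Of 36 cytokine and STAT response genes it was higher for 22 and lower for 4, and of 38 B cell receptor signaling genes it was higher for 18 and lower for 5. Ptpn22, a phosphatase of receptor signaling, had 61 and 65.7 CPM in KO against 5.25 and 6.29 CPM in WT germinal center B cells, and 164 and 168 CPM in KO against 102 and 101 CPM in WT activated B cells (difference 2.74, SE 0.13) and rose in both. Of 21 genes of MHC class I presentation the difference was higher for 13 and lower for 1, and 9 moved in 1 direction in both states. H2-K1 had effects of 1.30, SE 0.046, in germinal center and 0.22, SE 0.045, in activated B cells, and H2-Q7 had 2.46, SE 0.058, in germinal center and 0.34, SE 0.046, in activated B cells. Class I genes have close copies, so reads may be split between them. The survival gene Bcl2 was one-sided, with 64.9 and 60.2 CPM in KO against 9.23 and 7.11 CPM in WT germinal center B cells, and 106 and 128 CPM in KO against 122 and 119.9 CPM in WT activated B cells (difference 2.99, SE 0.13, adjusted p = 1e-37).

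**Figure D5:**
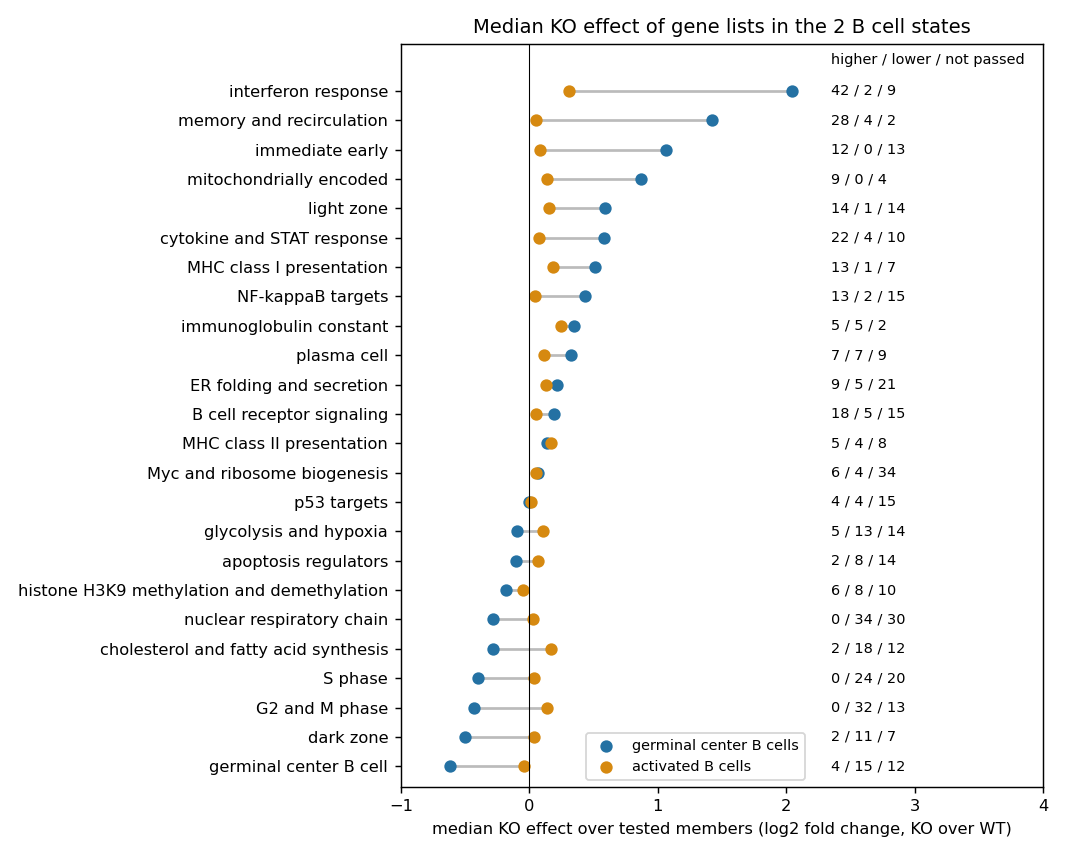
Median KO effect over the tested members of 24 gene lists in germinal center (blue) and activated B cells (orange), as log2 fold change of KO over WT, with the number of members whose difference was higher, lower or did not pass at the right. The blue points run from -0.62 for the germinal center list to 2.04 for the interferon list, while the orange points stay between -0.05 and 0.31.

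Genes that mark other cell types changed with genotype in both states, to different degrees. All 14 tested neutrophil genes rose in KO activated B cells, and the difference passed for 3. Of these 3 it was higher in germinal center B cells for 1, Ltf, and lower for 2. The germinal center levels of the 14 genes summed to 3.17 and 2.14 CPM in KO and 0.525 and 1.09 CPM in WT. Ltf, the neutrophil lactoferrin, had 418 and 354 CPM in KO and 115 and 111 CPM in WT activated B cells, beside 12 counts in KO and 0 in WT germinal center libraries (at least 4.94-fold higher). Its difference did not pass with DESeq2, limma-voom or the test against 1.2-fold, nor without KO library 1 or either WT library of the germinal center B cells. Of 11 erythroid genes the difference was higher for 8 and lower for 0, and Hbb-bs, a beta globin gene with near-identical copies, had 22.3 and 27.7 CPM in KO against 1.78 and 2.28 CPM in WT germinal center B cells, and 585 and 458 CPM in KO against 329 and 330.3 CPM in WT activated B cells. Of 21 monocyte and macrophage genes it was higher for 12 and lower for 0, and Lyz2, a myeloid lysozyme, had 2.07 and 5 CPM in KO against 0.420 and 0.182 CPM in WT germinal center B cells, and 868 and 785 CPM in KO against 457 and 414 CPM in WT activated B cells.

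Genes with a different KO effect were spread over the genome. Their share of the tested genes ran from 25.2% on chromosome 18 to 36.3% on chromosome 15. Among genes that start within 5 Mb of Jmjd1c, 12 of 39 had a different effect (30.8%), close to the 31.2% over all genes. The class of opposite genes was also spread, with 23 on chromosome 11, 21 on chromosome 7 and 4 to 16 on each of the others tested.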

How the data were processed

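RNA-seq read counts per gene were analysed for 8 libraries, 2 in each of 4 groups. The deposited files hold raw counts for 55401 gene IDs, 55141 of them in GENCODE M21, and 5 summary entries that were left out (reads on no gene were 47.2% to 53.9% of each library's total). The submitters' processing notes name Trimmomatic, DESeq2 and the build mm10. No source states the read counter or whether it used strand, so overlapping genes of opposite strands cannot be told apart.

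Counts were fitted in edgeR 4.0.16 (R 4.3.3) with TMM scaling, filterByExpr over the 4 groups and the quasi-likelihood F test, with 1 mean per group and adjusted p over the 14992 genes tested. Contrasts were the KO effect in each state and their difference. SE is the absolute log2 fold change over the square root of F. The scripts were tested on simulated counts. Folds against 0 counts used a floor of 3 counts over the group, and intervals and floors cover counting error only. Alternatives were DESeq2 1.42.0, limma-voom (limma 3.58.1), a test against 1.2-fold, other scalings, filters and thresholds, separate fits, a replicate block and each library left out.

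The members and lists were chosen with earlier results of these data known. Genes were named by rule: for each opposite class the 6 with the largest smaller effect, for each one-sided class the 5 with the largest effect, for each same-direction class the 3 with the largest difference, each with a mean count of at least 50 in 1 state, and up to 4 genes per list by p of the difference. Psmb8, Mki67, Ighe, Ighg2c, Jchain, Slc15a2, Anxa2, Satb1, Siglecg, Irs2, Ccnd3 and Tkt were named after their values were seen. Some genes that the rule or a list takes in are not reported here by name. Promoter sequences are from RefSeq (GRCm38.p6).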

Additional observations from a re-analysis of the deposited data

Results flagged for a closer look

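All values in this part are differences of KO effects on the log2 scale, germinal center minus activated, in edgeR's test of the difference, and each passed at an adjusted p under 0.05. The genes named for their KO effects are listed. No explanation was weighed, and 31.2% of all tested genes passed the same test. For Mmp9, Gstt1, Iqgap2 and Ltf 1 group held 0 counts, so the size of the difference is not established. In that state KO was at least 1.35-fold lower for Mmp9, 2.98-fold lower for Gstt1, 5.76-fold higher for Iqgap2 and 4.94-fold higher for Ltf. Itm2a and Ly6c2 rest on 1 count in WT germinal center libraries, so their sizes are uncertain too.

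Among genes with opposite effects, higher in KO germinal center and lower in KO activated B cells, the difference was 4.14 for Ifi208, 2.80 for Il9r, 2.49 for Wls, 2.38 for Sdc1, 2.22 for Gpr183, 1.28 for Plk2, 1.14 for Irs2, 1.02 for Malat1 and 0.97 for Rell2. For further genes of the kind it was 0.93 for Satb1, 0.91 for Stac2, 0.87 for Kdm7a, 0.64 for Siglecg and 0.53 for Pax5. Among genes with opposite effects, lower in KO germinal center and higher in KO activated B cells, the difference was -8.01 for Slc15a2, -5.71 for Mmp9, -2.75 for Ighg2b, -2.70 for Cfap74, -2.62 for Ighe, -2.51 for Rgcc, -2.25 for Anxa2, -2.04 for Tiam1 and -1.76 for Pik3cb. For further genes of the kind it was -1.63 for E2f8, -1.39 for Hmmr, -1.25 for Cks2, -1.21 for Ighg1, -1.20 for Ighg2c, -1.12 for Ccnd3, -0.98 for Hmgcs1, -0.87 for Pim1 and -0.86 for Sqle, with -0.90 for Idi1, -0.68 for Msmo1, -0.61 for Sc5d and -0.46 for Ldha. Smaller differences of this class were -0.80 for Tkt, -0.72 for Gapdh, -0.56 for Pgk1, -0.54 for Pkm, -0.51 for Psmb8, -0.47 for Mki67 and -0.46 for H2-Eb2. Among one-sided genes that rose in KO germinal center B cells, the difference was 3.90 for Itm2a, 3.74 for Plpp3, 3.53 for Axl, 3.48 for Lilrb4a, 2.99 for Bcl2, 2.92 for Ccr7 and 2.59 for Ifi203. For further genes of the kind it was 2.22 for Klf2, 2.04 for Ighd, 2.02 for Jun, 1.84 for Cd38, 1.40 for Irf4, 1.04 for Junb, 0.77 for mt-Nd1, 0.76 for Nfkb2 and 0.69 for Birc3. Smaller differences of this class were 0.57 for Scd1. Among one-sided genes that fell in KO germinal center B cells, the difference was -2.13 for Fads2, -2.05 for Osbpl3, -1.93 for Palm, -1.45 for Tgfbr1, -1.33 for Vopp1, -0.78 for Hmgb2, -0.76 for Cbx5, -0.76 for Gna13 and -0.75 for Bach2. For further genes of the kind it was -0.70 for Pcna, -0.68 for Cxcr4, -0.68 for Mcm6, -0.65 for Sdhb, -0.64 for Top2a and -0.48 for Cox4i1. Among one-sided genes that rose in KO activated B cells, the difference was -1.76 for Cdk5rap1, -1.18 for Stag3, -1.04 for Lrrc25, -0.98 for Mgll, -0.86 for Sema7a and -0.63 for Jchain. Among one-sided genes that fell in KO activated B cells, the difference was 5.0 for Gstt1, 0.96 for Rell1, 0.75 for Chst10, 0.71 for Dnah8 and 0.45 for Impact. Among genes that rose in both states, the difference was 5.38 for Iqgap2, 5.12 for Ly6c2, 4.04 for Ltf, 3.73 for Plac8, 2.94 for Hbb-bs, 2.88 for Ifi213, 2.74 for Ptpn22 and 2.62 for Lyz2. For further genes of the kind it was 2.49 for Ccr6, 2.46 for Ddx58, 2.12 for H2-Q7, 1.64 for Ighm, 1.53 for Trim30a, 1.08 for H2-K1 and 0.67 for mt-Co1. Among genes that fell in both states, the difference was 1.71 for Gcsam, -1.15 for Ccdc88a and 0.74 for Jmjd1c.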

How the results depend on the processing

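No difference of a named gene changed direction under any alternative, and over all tested genes higher differences outnumbered lower ones in each. Among lists, MHC class II presentation had a median difference of 0.0035, with 5 genes higher and 4 lower. With DESeq2's size factors in edgeR it had -0.018, with 4 higher and 5 lower. DESeq2 gave -0.019, with 3 higher and 4 lower, and leaving out mitochondrial genes gave -0.0072, with 5 higher and 5 lower. The p53 targets, with 4 higher and 4 lower, had 4 and 5 with DESeq2's size factors and 4 and 3 with DESeq2. The 4685 genes with a different KO effect became 3069 with DESeq2 (1678 higher, 3067 shared with edgeR) and 2456 against a 1.2-fold limit (1567 higher and 889 lower, or 63.8% higher in place of 55.9%). Leaving out 1 library at a time gave 3889 to 4488, with 2222 to 2496 higher and 1619 to 2028 lower. The 6516 genes changed in germinal center B cells ranged over 5236 to 6631 in this way. The 1246 changed in activated B cells ranged over 691 to 1170 (691 without KO library 1, 778 without WT library 2), and were 725 at an adjusted p under 0.01 and 432 with DESeq2. Opposite genes (237) were 110, 61 and 124 at an adjusted p under 0.01, with DESeq2 and with separate fits, and 108 to 257 with a library left out. Genes one-sided in activated B cells (119) were 59, 40, 71 and, against 1.2-fold, 31, and 68 to 159 with a library left out. Genes one-sided in germinal center B cells (3367) were 1638 against 1.2-fold and 2788 to 3155 with a library left out. Genes moving in 1 direction (303) were 186 at an adjusted p under 0.01, 120 with DESeq2 and 202 to 268 with a library left out. Of the 436 list genes with a different effect, 396 to 433 passed with a library left out, and of the 39 genes the rule ranks 35 to 39 passed. With 1 library in a group, that library is assumed to vary like the other groups. Of 1761 pairs of a named gene and an alternative, 1739 kept the direction and call of the difference and 22 lost the call, in 9 of 104 genes, as given beside the main ones. The class was kept under all alternatives by 18 of 43 named opposite genes, 25 of 32 one-sided in germinal center, 3 of 11 one-sided in activated B cells and 10 of 18 moving in 1 direction. Named genes were taken for large effects, low p or values already seen. Over whole classes it was kept by 669 of 1800 and 462 of 1567 one-sided in germinal center, higher and lower in KO. For one-sided in activated B cells this was 8 of 57 and 2 of 62, and for 1 direction 85 of 271 and 2 of 32. The fit with a replicate block called 4889 genes, 4683 of them shared. Deviations of same-numbered libraries correlated at -0.035 to 0.0099 across genes. Counting error makes up much of these deviations, so the correlations cannot show whether the numbers pair the samples. The causes of these shifts were not tested. At these depths 1 CPM is 8.21 to 10.97 counts, so low genes carry the widest errors.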

Other observations

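The lists not described above are given here, beside the background of 31.2% of genes with a different KO effect. Of 44 genes of Myc targets and ribosome biogenesis, the difference was higher in germinal center B cells for 6, lower for 4 and did not pass for 34, and 1 rose in KO activated B cells. Of 35 genes for folding secreted proteins it was higher for 9 and lower for 5. It was, of 23 p53 targets higher for 4 and lower for 4, and of 24 apoptosis regulators higher for 2 and lower for 8. Of 17 genes of MHC class II presentation it was higher for 5 and lower for 4, while KO raised 9 and lowered 3 in germinal center B cells and raised 10 and lowered 0 in activated B cells. Of 23 plasma cell genes it was higher for 7 and lower for 7. Of 14 pan-B cell genes it was higher for 7 and lower for 2, with 6 one-sided in germinal center B cells. It was higher for 5 of 15 T and NK cell genes, 3 of 8 dendritic cell genes and 1 of 5 genes of stromal and follicular dendritic cells, and lower for 0 in each. Of 3 platelet genes it was lower for 1 and higher for 0.

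Writers, readers and erasers of methylated lysine 9 of histone H3, the mark on which the JMJD1C family acts, also split. Of 24 tested, the difference was higher for 6 and lower for 8, with 11 one-sided in germinal center B cells. KO raised 4 and lowered 13 in germinal center B cells and raised 0 and lowered 3 in activated B cells. Cbx5, which encodes the heterochromatin protein HP1 alpha, had 178 and 191 CPM in KO against 332 and 309 CPM in WT germinal center B cells, and 68.8 and 69.8 CPM in KO against 69.6 and 72.6 CPM in WT activated B cells (difference -0.76, SE 0.082). The germinal center libraries of the 2 genotypes stood well apart and the activated libraries close together.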
